A study of Mus musculus with 15 samples.

Results

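The 77 genes described here are named as mitochondrial ribosomal proteins. They are all the genes on the array whose platform symbol begins with Mrpl (large subunit, 48 genes) or Mrps (small subunit, 29 genes) followed by a digit, out of 19938 genes that had a probe set with 1 symbol. The rule reads gene names only, and the group was proposed with earlier results of these data known. RNA of the choroid plexus, the tissue that secretes cerebrospinal fluid, was measured on 15 single-colour whole-transcript arrays, 1 per mouse. There were 5 Add1 wild-type, 5 Add1 heterozygous and 5 Add1 null mice, and Add1 encodes the membrane skeleton protein alpha-adducin. All were C57BL/6J, labelled male and 3 weeks old, an age the submitters chose to precede hydrocephalus. The sources used here do not say how the null allele was made or whether any of the mice were littermates. The p-values set differences between group means against the spread between these animals. They treat the animals as independent, which littermates might not be.

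Mitochondrial ribosomes translate the few proteins that the mitochondrial genome encodes, all of them core subunits of the respiratory complexes or of ATP synthase. Their RNA comes from the mitochondrial genome, while every one of their proteins is encoded in the nucleus, made in the cytosol and imported. Some members are counterparts of bacterial ribosomal proteins, and others were added during the evolution of mitochondria. Epithelial cells of the choroid plexus are rich in mitochondria, which supply ATP for ion transport into the cerebrospinal fluid.

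Promoters were available for 68 of the 77 genes in RefSeq's annotation of GRCm38.p6, as the 250 bases before the annotated start. Each was searched on both strands for 4 motifs: NRF1 (its 10-letter consensus), ETS (CCGGAAG), YY1 (AAGATGGC) and SP1 (GGGCGG), names of transcription factors or factor families known to bind such letters. Matches of different motifs may overlap, and NRF1 and YY1 are known as regulators of nuclear genes for mitochondria. The sequences of 5 members are shown 5′ to 3′ on the strand of the gene, 1 for each motif and 1 without a match, with the matched letters in capitals. Mrpl36 (chr13:73330759-73331008, plus strand) holds YY1 letters on its other strand, Mrpl42 (chr10:95501950-95502199, minus strand) holds SP1 letters on its other strand, and Mrpl52 (chr14:54426659-54426908, plus strand) holds ETS letters on its other strand. Mrpl45 (chr11:97315466-97315715, plus strand) has 2 NRF1 matches, and Mrps10 (chr17:47368947-47369196, plus strand), the member that was higher in null mice, has no match in this window. Mrpl41 and Mrps25, which were lower in null mice, have no match in it either.
Mrpl36: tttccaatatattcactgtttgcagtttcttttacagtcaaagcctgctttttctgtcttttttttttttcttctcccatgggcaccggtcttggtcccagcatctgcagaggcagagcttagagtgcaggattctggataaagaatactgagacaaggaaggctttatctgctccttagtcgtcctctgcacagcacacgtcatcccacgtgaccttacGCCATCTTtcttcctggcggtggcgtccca
Mrpl42: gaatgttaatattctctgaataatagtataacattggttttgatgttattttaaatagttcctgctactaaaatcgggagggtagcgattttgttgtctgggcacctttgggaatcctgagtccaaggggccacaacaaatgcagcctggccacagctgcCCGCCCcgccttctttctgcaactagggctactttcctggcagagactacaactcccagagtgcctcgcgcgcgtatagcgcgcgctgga
Mrpl52: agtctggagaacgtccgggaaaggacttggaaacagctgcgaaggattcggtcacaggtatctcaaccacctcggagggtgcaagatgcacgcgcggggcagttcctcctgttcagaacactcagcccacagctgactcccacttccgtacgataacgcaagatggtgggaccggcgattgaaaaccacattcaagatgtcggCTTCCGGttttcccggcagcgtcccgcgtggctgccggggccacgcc
Mrpl45: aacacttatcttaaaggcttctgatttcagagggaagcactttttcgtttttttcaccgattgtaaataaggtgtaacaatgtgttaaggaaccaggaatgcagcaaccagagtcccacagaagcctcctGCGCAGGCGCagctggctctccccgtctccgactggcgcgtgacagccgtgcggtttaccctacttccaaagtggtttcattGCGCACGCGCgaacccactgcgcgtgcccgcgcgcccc
Mrps10: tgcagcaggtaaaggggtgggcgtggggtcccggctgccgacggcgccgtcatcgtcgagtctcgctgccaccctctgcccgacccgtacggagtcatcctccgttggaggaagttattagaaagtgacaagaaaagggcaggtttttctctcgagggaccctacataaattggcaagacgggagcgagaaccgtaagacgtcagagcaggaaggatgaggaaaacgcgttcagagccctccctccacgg

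NRF1 letters stood in 10 of the 68 promoters (14.7%), against 10.2% of the 8197 tested genes with a promoter and 4.23% of all 27025 genes in the promoter table. ETS letters stood in 17 (25.0%), against 16.1% and 7.83%. YY1 letters stood in 4 (5.88%), against 2.43% and 1.83%. SP1 letters stood in 33 (48.5%), a smaller share than the 66.0% of tested genes and a larger one than the 35.4% of all genes. The median difference between null and wild-type mice was -0.14 in members with NRF1 letters and -0.14 in those without. For ETS it was -0.11 with and -0.15 without, for YY1 -0.19 with and -0.13 without, and for SP1 -0.16 with and -0.12 without, with no test of the difference. A match describes letters and does not show binding.

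Levels are given as log2 values of the robust multi-array average (RMA), and arrays are listed in the order of the replicate numbers in the sample titles. A gene was tested where it exceeded 5.33, the median of all probe sets with 1 symbol, in at least 5 arrays. All 77 members were among the 10069 tested genes, and 74 of them exceeded 5.33 in all 15 arrays. The exceptions were Mrpl32 (12 arrays), Mrps36 (13) and Mrps27 (14). The lowest mean level of a member was 5.45 and the median of the mean levels was 6.94. The median residual SD within a genotype was 0.14 for members and 0.12 for all tested genes, and the median SE of a member's difference between genotypes was 0.0836. A gene was called where its Benjamini-Hochberg adjusted p over all 10069 genes in limma was under 0.05.

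The arrays carried 3 features that bear on the groups. Mean Add1 levels were 7.92 ± 0.12 for the wild type, 7.76 ± 0.10 for heterozygous and 7.61 ± 0.16 for null mice (SD, n = 5 each), a modest fall between wild type and null (-0.31, adjusted p = 0.0240 in limma). Whether its probe set lies in the deleted part is not known, so it is a weak check of the labels. Xist, the RNA of the inactive X chromosome of females, read 9.09 and 9.69 in null arrays 1 and 5 and 3.11 to 3.88 in all other arrays. The Y-linked genes were low in the same arrays: Eif2s3y read 3.19 and 3.34 (6.92 to 7.60 in all others), Uty 3.78 and 3.84 (7.53 to 7.95) and Kdm5d 4.27 and 4.10 (6.97 to 7.23). This is the pattern of females, against their label male. No wild-type or heterozygous array showed it, so by these genes sex was not balanced over the genotypes. Heterozygous array 1 stood apart in neuronal genes, with Gabra6 at 7.80 and Snap25 at 7.72. Transthyretin (Ttr), the defining secreted protein of choroid plexus epithelium, read between 12.85 and 13.19 in all 15 arrays.

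Mitochondrial ribosomal protein genes were mostly lower in null than in wild-type mice, by small amounts. The difference was below 0 in 71 of 77 members (92.2%), against 46.1% of all tested genes, and its median was -0.13, against 0.01 over all tested genes. Members' differences ran from -0.53 for Mrpl42 to 0.28 for Mrps10, and 0 members passed a 1.5-fold change. Of the 77, 10 were called (13%), 9 lower and 1 higher; the background was 7.73% of all tested genes called, 3.56% lower and 4.17% higher. At an unadjusted p under 0.05, 30 members were lower (10.8% of all tested genes were) and 1 was higher (13.2% were). In 6 members (7.79%) every null array lay below every wild-type array, against 2.5% of tested genes, and in 0 members did every null array lie above, against 3.46%. In bulk tissue, fewer cells of a type and less RNA per cell cannot be told apart. Counts of calls moved with single arrays: leaving out wild-type array 1, wild-type array 3 or null array 1 gave 5 calls each, leaving out null array 3 gave 6, and leaving out null array 2 gave 26. Without null arrays 1 and 5, 3 members were called, Mrpl13, Mrpl36 and Mrpl42, and with the number in the sample descriptions as a covariate only Mrps10 was. Calls over all tested genes, 778 with all arrays, moved as well. They were 390, 450 and 400 without wild-type array 1, wild-type array 3 and null array 1. Leaving out null array 3 gave 438 and null array 2 gave 1418. Without null arrays 1 and 5 they were 396, and with the covariate 257. In both of these settings the members' share was not clearly above that of all tested genes.

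**Figure D1:**
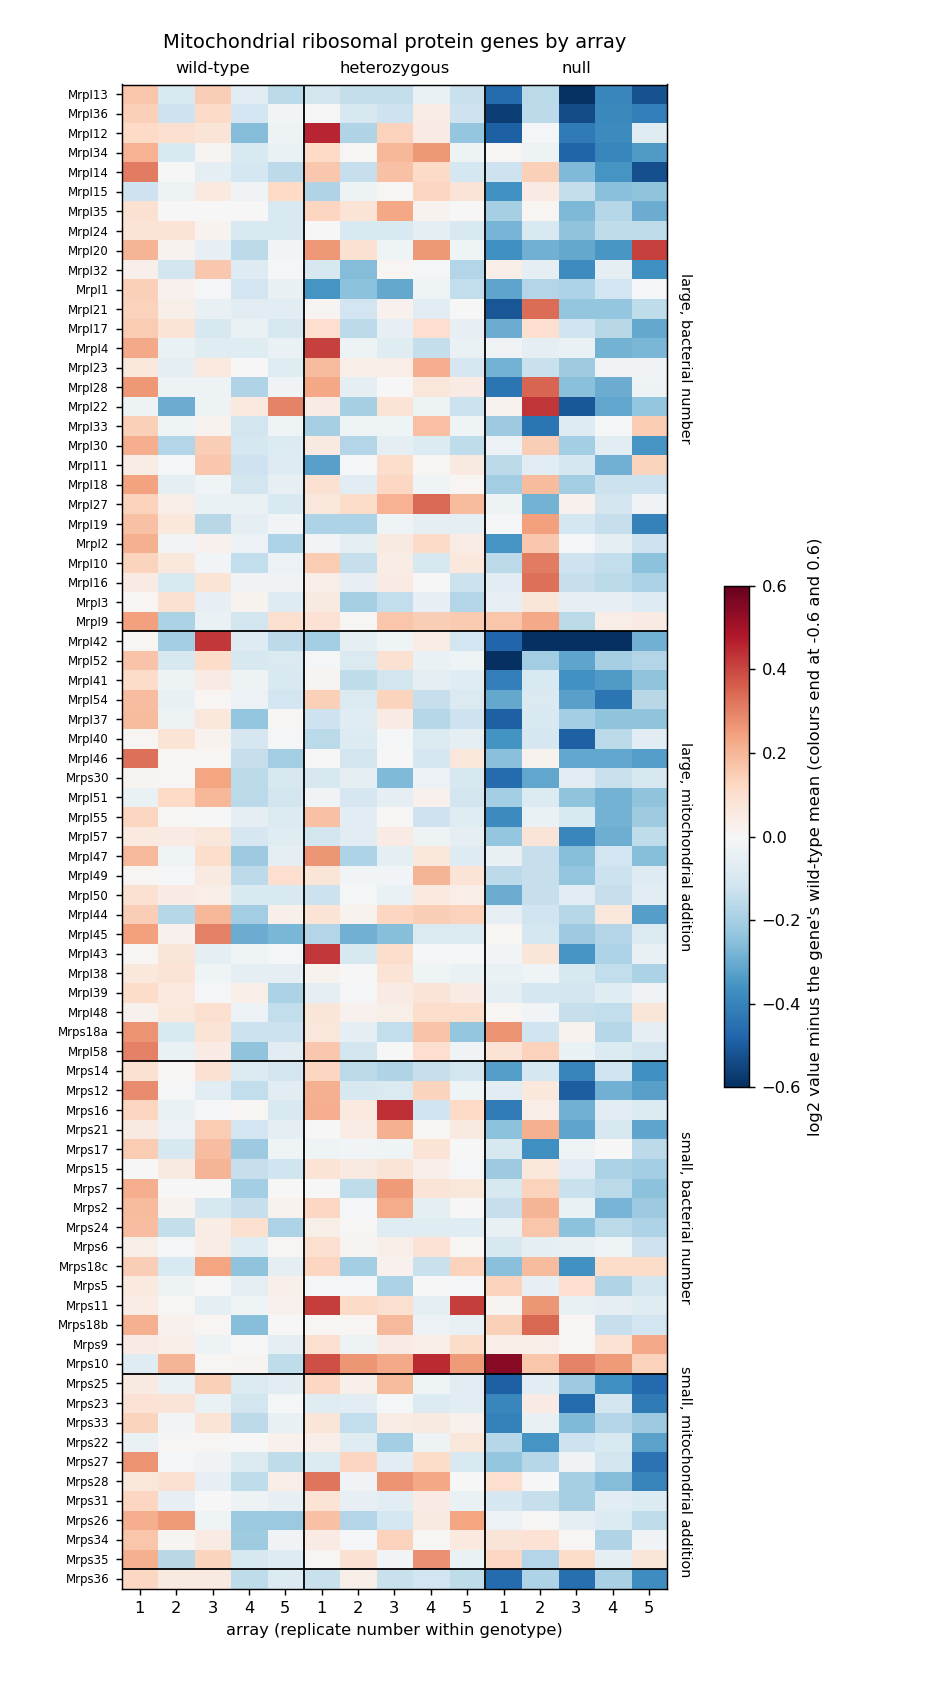
Heat map of the 77 genes (vertical) in the 15 arrays (horizontal, replicates 1 to 5 of each genotype). Genes are grouped by subunit and by whether they are numbered after a bacterial protein. Within a group they are ordered by the difference between null and wild type. Colour gives the log2 value minus the gene's wild-type mean. Null arrays 1, 3, 4 and 5 are mostly blue (lower), null array 2 is mixed, and Mrps10 is red (higher) in all heterozygous and null arrays.

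**Figure D2:**
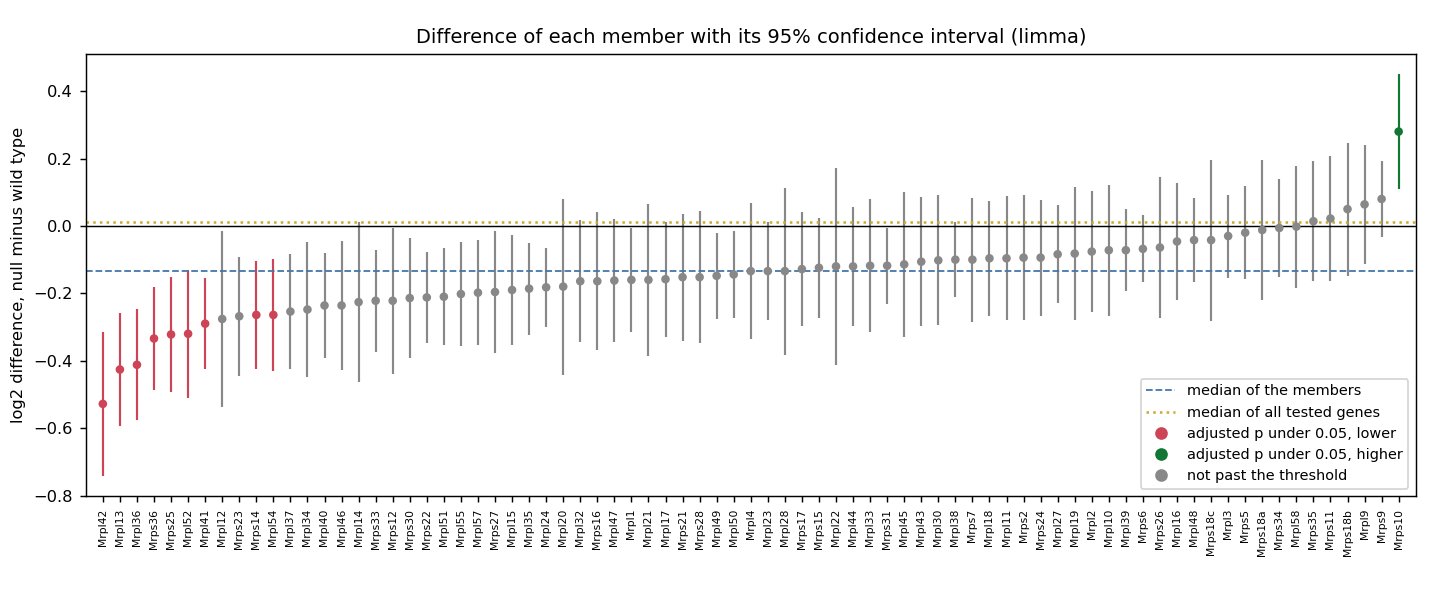
Log2 difference of each gene between null and wild-type mice (5 arrays each), ordered by size, with its 95% confidence interval from limma; the dashed line is the median of the 77 genes and the dotted line that of all tested genes. Of the 77 points, 71 lie below 0, 9 of them called lower, and Mrps10 is called higher.

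Among the 28 large subunit proteins with a bacterial counterpart of the same number, 2 were called lower (7.14%, close to the 7.73% of all tested genes called in either direction, of which 3.56% lower), 27 had a difference below 0 and the median was -0.13. Mrpl13, counterpart of a bacterial protein that joins the large subunit early in its assembly, read 7.47, 7.21, 7.45, 7.24 and 7.14 in wild-type arrays. In null arrays it read 6.84, 7.14, 6.71, 6.91 and 6.78, and in heterozygous arrays 7.19, 7.16, 7.16, 7.26 and 7.17. Null array 2 tied with the lowest wild-type array, and the other null arrays lay below all wild-type arrays. The null mean was 74.4% of the wild-type mean (difference -0.43, SE 0.0800, adjusted p = 0.00433 in limma). Mrpl36, a very small zinc-binding protein of the large subunit, read 7.84, 7.57, 7.81, 7.58 and 7.68 in wild-type arrays. Its null arrays read 7.13, 7.54, 7.16, 7.31 and 7.28, and its heterozygous arrays 7.70, 7.60, 7.57, 7.74 and 7.57. All null arrays lay below all others, with null array 2 just below the lowest wild-type array. On average, null mice had 75.2% of the wild-type level (-0.41, SE 0.0784, adjusted p = 0.00471). Leaving out any single array kept both genes called, and so did leaving out null arrays 1 and 5 together (adjusted p = 0.0339 for Mrpl13 and 0.0349 for Mrpl36).

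Mrpl12, the stalk protein that in mitochondria is also known to bind the mitochondrial RNA polymerase, had a difference of -0.28 that did not pass (adjusted p = 0.182). Mrpl34 (-0.25, adjusted p = 0.118) and Mrpl35 (-0.19, adjusted p = 0.0882) did not pass either. Mrpl24 lay just outside the threshold (-0.18, adjusted p = 0.0523). Mrpl9, at 0.06 (adjusted p = 0.692), was the only one of the 28 with a difference above 0.

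The other 22 large subunit proteins are not numbered after a large subunit protein of bacteria, though not all of them lack a bacterial counterpart. Among these 22, 4 were called lower (18.2%, against 3.56% of all tested genes), all 22 differences were below 0 and the median was -0.18. This group includes Mrps18a and Mrps30, which carry a small subunit name but sit in the large subunit. Mrpl42 showed the largest difference of the 77 genes. It read 6.60, 6.38, 7.01, 6.51 and 6.43 in wild-type arrays, 6.38, 6.53, 6.56, 6.63 and 6.47 in heterozygous, and 6.11, 5.96, 5.96, 5.96 and 6.30 in null arrays. Every null array lay below every array of the other genotypes, and null array 2 was among the lowest here. This is 69.4% of the wild-type level (-0.53, SE 0.102, adjusted p = 0.00524), and without null arrays 1 and 5 the difference was -0.63 (adjusted p = 0.00628).

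Mrpl41, a large subunit protein without a bacterial counterpart, read 8.20, 8.06, 8.14, 8.06 and 8.0 in wild-type arrays. It read 8.11, 7.94, 7.98, 8.04 and 8.02 in heterozygous and 7.68, 8.0, 7.73, 7.75 and 7.85 in null arrays. Null array 2 equalled the lowest wild-type array and the other 4 lay below all wild-type arrays. Null mice averaged 81.8% of wild type (-0.29, SE 0.0642, adjusted p = 0.0113). The call held without any single array and was lost without null arrays 1 and 5 (-0.27, adjusted p = 0.0536).

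Mrpl52 read 6.64, 6.37, 6.58, 6.37 and 6.38 in wild-type arrays, 6.46, 6.38, 6.56, 6.43 and 6.44 in heterozygous arrays and 5.77, 6.26, 6.15, 6.27 and 6.29 in null arrays. All null arrays lay below all others, and null array 1 lay far below the remaining null arrays. The null mean was 80.1% of wild type (-0.32, SE 0.0898, adjusted p = 0.0375). Omitting array 1 or 3 of either group, or wild-type array 2, ended the call (adjusted p from 0.0544 to 0.108). Mrpl54 read 6.67, 6.44, 6.5, 6.45 and 6.37 in wild-type arrays, 6.63, 6.40, 6.62, 6.35 and 6.40 in heterozygous arrays and 6.18, 6.40, 6.16, 6.05 and 6.32 in null arrays. Its null and wild-type arrays overlapped through null array 2. Its null mean was 83.3% of wild type (-0.26, SE 0.0792, adjusted p = 0.0498), and leaving out any one of 11 of the 15 arrays (all but wild-type array 5, heterozygous array 1 and null arrays 2 and 5) raised the adjusted p past the threshold, to at most 0.136. Outside the threshold were Mrpl40 (-0.24, adjusted p = 0.0574) and Mrpl37 (-0.25, adjusted p = 0.0622).

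Among the 16 small subunit proteins with a bacterial counterpart, 1 was called lower and 1 higher (12.5% in all, against 7.73%), 12 differences were below 0 and the median was -0.09. Mrps14, of the head of the small subunit, read 7.48, 7.40, 7.48, 7.31 and 7.28 in wild-type arrays. In heterozygous arrays it read 7.52, 7.23, 7.21, 7.25 and 7.28, and in null arrays 7.06, 7.29, 6.99, 7.27 and 7.02. Null array 2 fell within the wild-type range, null array 4 just below it and the others further below. Null mice averaged 83.3% of wild type (-0.26, SE 0.0765, adjusted p = 0.0432), a call lost on leaving out any one of 11 arrays (all but wild-type array 5, heterozygous array 1 and null arrays 2 and 4; adjusted p at most 0.117).

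Mrps10, also of the small subunit head, was the only member called higher. It read 5.6, 5.88, 5.68, 5.69 and 5.52 in wild-type arrays, 6.06, 5.94, 5.90, 6.12 and 5.93 in heterozygous arrays and 6.22, 5.84, 5.97, 5.93 and 5.81 in null arrays. All heterozygous arrays lay above all wild-type arrays, while null arrays 2 and 5 lay below the highest wild-type array. Null mice averaged 121% of wild type (0.28, SE 0.0812, adjusted p = 0.0434). The call was lost on leaving out any one of 10 arrays (all but wild-type array 2, heterozygous arrays 1 and 4 and null arrays 2 and 5; adjusted p at most 0.118), and also without null arrays 1 and 5 together (0.24, adjusted p = 0.105).

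The remaining small subunit proteins, 10 genes most of which have no bacterial counterpart, had 1 called lower (10%, against 3.56%), 9 differences below 0 and a median of -0.17. Mrps25, the called gene, read 6.64, 6.55, 6.73, 6.5 and 6.52 in wild-type arrays. It read 6.71, 6.62, 6.78, 6.56 and 6.52 in heterozygous and 6.10, 6.52, 6.37, 6.22 and 6.12 in null arrays. Null array 2 lay inside the wild-type range and the other null arrays below it. The difference was -0.32 (SE 0.0806, adjusted p = 0.0224), and omitting wild-type array 1, wild-type array 3 or null array 1 ended the call (adjusted p from 0.0621 to 0.0677). Mrps22 (-0.21, adjusted p = 0.0508) and Mrps23 (-0.27, adjusted p = 0.0590), both small subunit proteins added in mitochondria, lay just outside.

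Mrps36 was named as a small subunit protein and is now known as a subunit of the 2-oxoglutarate dehydrogenase complex of the citric acid cycle, so it was counted apart from the subunits. It read 5.86, 5.79, 5.79, 5.58 and 5.65 in wild-type arrays, 5.6, 5.77, 5.6, 5.62 and 5.58 in heterozygous arrays and 5.27, 5.55, 5.28, 5.54 and 5.36 in null arrays. All null arrays lay below all others, 3 of them well below and null arrays 2 and 4 just below. The null mean was 79.3% of wild type (-0.33, SE 0.0720, adjusted p = 0.0100), at a level near the filter value. Without null arrays 1 and 5 the call was lost (-0.28, adjusted p = 0.0688). Its second probe set, above the filter in 0 arrays, had a difference of -0.34.

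**Figure D3:**
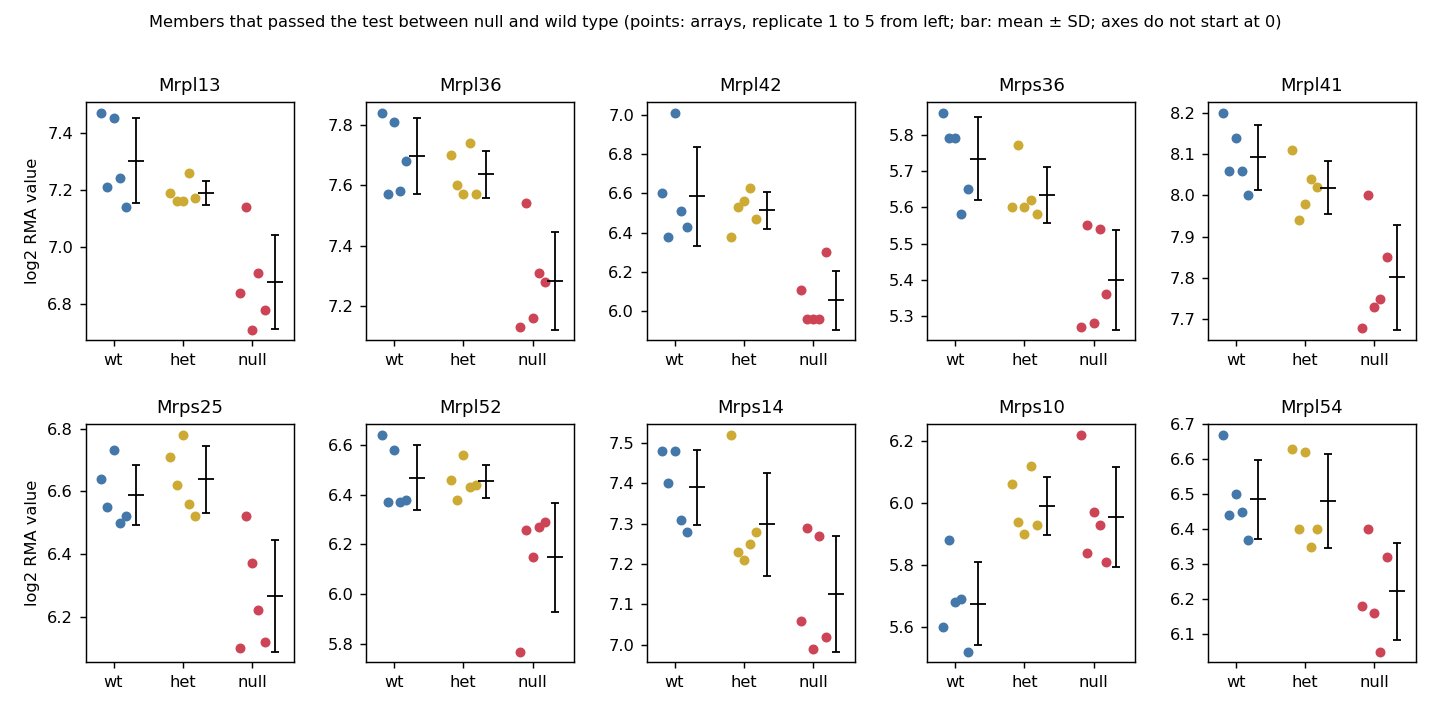
Log2 RMA values of the 10 genes called between null and wild-type mice, 1 panel per gene with its own axis that does not start at 0; points are arrays (replicates 1 to 5 from the left), and the bar is the mean with the SD of 5 arrays for wild-type (wt), heterozygous (het) and null mice. In 9 panels the null mean is the lowest, null array 2 is the highest null array for Mrpl13, Mrpl36, Mrps36, Mrpl41, Mrps25, Mrps14 and Mrpl54, and Mrps10 is higher in heterozygous and null mice than in wild type.

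For 8 members a second probe set with the same symbol could be compared; the kept one is that with the higher mean level. The kept and the other probe set differed between null and wild type by -0.13 and -0.18 for Mrpl23, -0.29 and -0.19 for Mrpl41, and -0.21 and -0.36 for Mrpl51. They differed by -0.22 and -0.23 for Mrps33 and -0.02 and -0.08 for Mrps5. The second probe set of Mrpl27 exceeded the filter value in 0 arrays, so its -0.06 beside -0.08 says little. The genomic position of the probe sets was not checked, so whether both probe sets of a gene read the same locus is not known. Mrpl47 had -0.16 for one probe set and 0 for the other.

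Between heterozygous and wild-type mice 0 members were called in limma, against a background of 0% of all tested genes. The median difference was 0.002, 37 of 77 differences were below 0 (48.5% over all tested genes) and they ran from -0.22 to 0.32. At an unadjusted p under 0.05 there were 4 members (5.19%), 3 higher and 1 lower, against 3.78% of tested genes, 2.04% higher and 1.75% lower. Every alternative setting that was run called 0 members here. A difference of the size seen in null mice can be set against the median SE of 0.0836, so small differences in single genes may have been missed.

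Of the 6 members with the smallest p in this comparison, Mrpl27 is given with the next comparison. Mrps10, whose arrays are given above, had the smallest (0.32, unadjusted p = 0.00113, adjusted p = 0.994), and it was the only member (1.3%) whose heterozygous arrays all lay above the wild-type arrays, as 0.407% of tested genes did; 0 members had all heterozygous arrays below, against 0.397%. Mrpl1, of the stalk beside the exit site for tRNA, read 6.84, 6.72, 6.69, 6.58 and 6.65 in wild-type arrays, 6.34, 6.45, 6.39, 6.67 and 6.55 in heterozygous arrays and 6.38, 6.52, 6.51, 6.58 and 6.69 in null arrays. Heterozygous array 4 reached into the wild-type range (-0.22, unadjusted p = 0.00857, adjusted p = 0.994). Mrps11, of the small subunit platform, read 5.59, 5.55, 5.49, 5.52 and 5.57 in wild-type arrays, 5.96, 5.66, 5.64, 5.49 and 5.96 in heterozygous arrays and 5.56, 5.81, 5.50, 5.49 and 5.47 in null arrays. Heterozygous arrays 1 and 5 were high and array 4 was at the low end of wild type (0.20, unadjusted p = 0.0371).

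Mrpl3, near the catalytic centre of the large subunit, read 6.73, 6.81, 6.67, 6.74 and 6.64 in wild-type arrays, 6.77, 6.52, 6.57, 6.67 and 6.54 in heterozygous and 6.67, 6.79, 6.67, 6.67 and 6.64 in null arrays. The groups overlapped (-0.10, unadjusted p = 0.0930). Mrpl45, which lies at the exit of the nascent chain and the inner membrane, read 6.17, 5.95, 6.23, 5.63 and 5.65 in wild-type arrays, 5.75, 5.64, 5.67, 5.84 and 5.84 in heterozygous and 5.94, 5.82, 5.71, 5.75 and 5.84 in null arrays. Its wild-type arrays were the most spread, and all 3 groups overlapped (-0.18, unadjusted p = 0.0998). The adjusted p of all 6 genes was 0.994.

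Null mice were also compared with heterozygous mice; this comparison uses the same 5 null arrays as the one with wild type, so the pair are not independent. Here 11 members (14.3%) were called, all lower, against 7.93% of tested genes called, 3.61% lower and 4.32% higher. The median difference was -0.16, against 0.01 over all tested genes, and 69 members were below 0, against 47.6%. At an unadjusted p under 0.05, 34 members were lower and 0 higher, against 11.9% of tested genes lower and 13.9% higher. All null arrays lay below all heterozygous arrays in 8 members (10.4%), against 2.73% of tested genes, and above them in 0, against 3.03%. The count was 5 without heterozygous array 1, 3 or 4 or null array 3, 7 without null array 1 or wild-type array 2, and 27 without null array 2. Without null arrays 1 and 5 it was 3 (Mrpl20, Mrpl34 and Mrpl42). Calls over all tested genes, 798 with all arrays, moved as well. They were 454, 432 and 586 without heterozygous array 1, 3 and 4, and 402 without null array 3. Leaving out null array 1 gave 356, wild-type array 2 gave 643 and null array 2 gave 1815. Without null arrays 1 and 5 they were 330.

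By role, 5 of the 28 large subunit proteins with a bacterial counterpart were called lower than in heterozygous mice (17.9%, against 3.61% of all tested genes), with a median of -0.13. Of the other 22 large subunit proteins 4 were (18.2%, median -0.16). Of the 16 small subunit proteins with a counterpart 0 were (median -0.14), and of the 10 remaining small subunit proteins 2 (20%, median -0.18). The differences from heterozygous mice were -0.46 for Mrpl42 (adjusted p = 0.0135), -0.35 for Mrpl36 (adjusted p = 0.0131), -0.31 for Mrpl13 (adjusted p = 0.0269) and -0.31 for Mrpl52 (adjusted p = 0.0447). They were -0.37 for Mrps25 (adjusted p = 0.0112) and -0.22 for Mrpl41 (adjusted p = 0.0475). Mrps36 (-0.23, adjusted p = 0.0535), Mrpl54 (-0.26, adjusted p = 0.0532) and Mrps14 (-0.17, adjusted p = 0.165) did not pass, and Mrps10 was near 0 (-0.04, adjusted p = 0.814). Of the called genes, Mrpl36, Mrpl42 and Mrps25, and Mrpl35 described below, stayed called on leaving out each single array. Mrpl13 was lost without heterozygous array 1 or 4 or null array 1 or 3 (adjusted p from 0.0502 to 0.0733). Mrpl41 held only when the array left out was wild-type array 1 or null array 2, and Mrpl52 only when it was one of those or null array 4 or 5.

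A further 5 members were called only in this comparison at the threshold, and whether they differ between the comparisons was not tested. Mrpl35 read 7.77, 7.68, 7.68, 7.68 and 7.59 in wild-type arrays, 7.81, 7.76, 7.91, 7.70 and 7.68 in heterozygous and 7.48, 7.69, 7.41, 7.51 and 7.38 in null arrays. Null array 2 stayed inside the heterozygous range and the other null arrays lay below it (-0.28, SE 0.0649, adjusted p = 0.0167). Mrpl27, whose bacterial counterpart reaches into the catalytic centre, read 7.98, 7.88, 7.80, 7.80 and 7.75 in wild-type arrays, 7.91, 7.95, 8.05, 8.18 and 8.03 in heterozygous and 7.81, 7.56, 7.87, 7.73 and 7.82 in null arrays. Every null array lay below every heterozygous array (-0.27, SE 0.0693, adjusted p = 0.0283), while null and wild-type arrays overlapped. Its heterozygous mean was 0.18 above wild type (unadjusted p = 0.0175), and it was lost without heterozygous array 3 or 4 (adjusted p from 0.0630 to 0.0638).

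Mrpl34 read 7.27, 6.97, 7.08, 6.97 and 7.02 in wild-type arrays, 7.18, 7.07, 7.26, 7.32 and 7.03 in heterozygous and 7.07, 7.03, 6.58, 6.67 and 6.72 in null arrays. Null arrays 1 and 2 stayed in the range of the other genotypes (-0.36, SE 0.0950, adjusted p = 0.0302), and the call was lost without heterozygous array 1, 3 or 4 or null array 3, 4 or 5 (adjusted p from 0.0532 to 0.0833). Mrpl49 read 8.56, 8.54, 8.60, 8.39 and 8.65 in wild-type arrays, 8.62, 8.53, 8.53, 8.75 and 8.63 in heterozygous and 8.39, 8.41, 8.31, 8.42 and 8.47 in null arrays. Its null and heterozygous arrays did not overlap (-0.21, SE 0.0604, adjusted p = 0.0407). Mrps28 read 6.78, 6.80, 6.66, 6.56 and 6.75 in wild-type arrays, 7.03, 6.69, 6.98, 6.94 and 6.71 in heterozygous and 6.81, 6.71, 6.51, 6.45 and 6.31 in null arrays. Null arrays 1 and 2 lay among the heterozygous arrays (-0.31, SE 0.0930, adjusted p = 0.0480). Mrpl49 was lost on leaving out any one of 8 arrays (wild-type array 2, heterozygous arrays 1, 3, 4 and 5 and null arrays 1, 3 and 4), and Mrps28 any one of 11 (all but heterozygous arrays 2 and 5 and null arrays 1 and 2).

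The heterozygous mean was compared with the midpoint of the other genotypes to see whether levels followed the number of alleles. Of the members 0 were called, against 0.0596% of tested genes. At an unadjusted p under 0.05 there were 14 members (18.2%), 13 of them with heterozygous mice above the midpoint, against 12.9% of tested genes in either direction and 6% above it. Mrpl27 had the smallest p (0.22 above the midpoint, unadjusted p = 0.00160, adjusted p = 0.186). The null mean was the lowest of the 3 genotype means in 65 members (84.4%), against 37.8% of tested genes. Means fell from wild type over heterozygous to null in 30 members (39%), against 17.6% of tested genes.

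**Figure D4:**
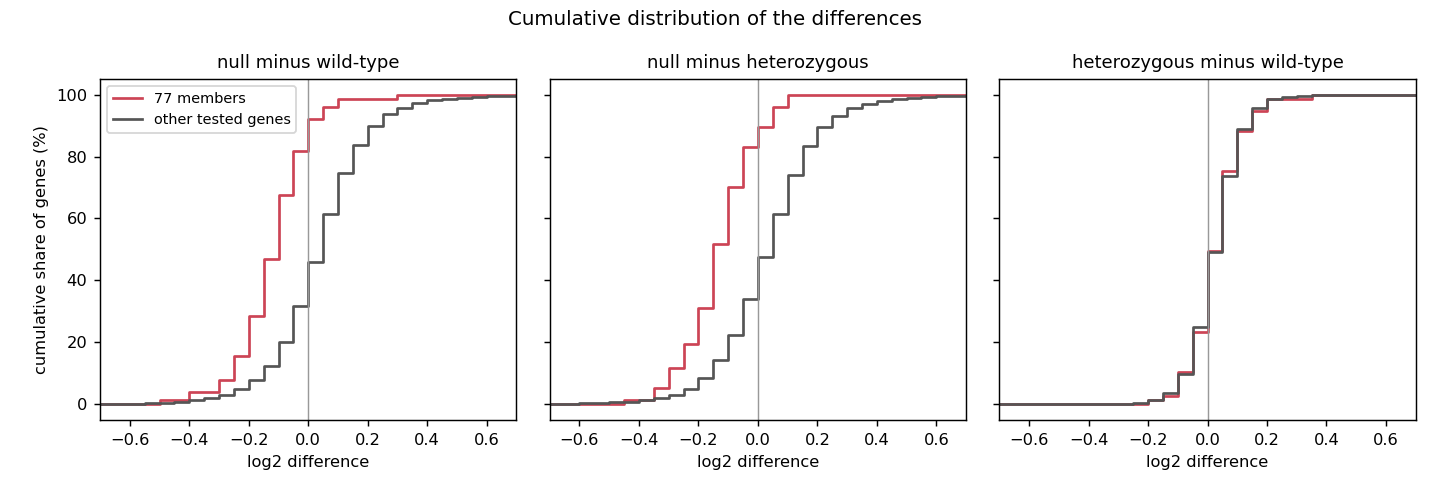
Cumulative share of genes (vertical, percent) at or below a log2 difference (horizontal) for the 77 genes and for all other tested genes, 1 panel per comparison. At -0.2 the share is 28.6% of the 77 genes against 7.92% of the others for null minus wild type, 31.2% against 8.66% for null minus heterozygous, and 1.3% against 1.49% for heterozygous minus wild type, where the lines nearly coincide.

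Each array was also summarised by the median over the 77 genes of its deviation from the wild-type mean of the gene. The wild-type arrays stood at 0.13, -0.01, 0.02, -0.10 and -0.06, the heterozygous arrays at 0.05, -0.06, 0.01, 0.01 and -0.03, and the null arrays at -0.16, -0.03, -0.20, -0.16 and -0.17. Null arrays 1, 3, 4 and 5 lay below all wild-type and heterozygous arrays, and null array 2 lay among them. Wild-type array 1 was the highest, with 5 of 77 genes below their wild-type mean, while null array 4 had 71. Group means were -0.0016 ± 0.0885 for the wild type, -0.0012 ± 0.0417 for heterozygous mice and -0.14 ± 0.0644 in null mice (SD, n = 5). Over all tested genes the same median stayed between -0.028 and 0.038 in every array. The mean level of a member and its difference between null and wild type had a Pearson r of 0.0307 across the 77 genes, which share the same arrays.

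Related mitochondrial gene lists were counted in the same comparison of null with wild-type mice. Of all tested genes 3.56% were called lower there and 4.17% higher, and 46.1% had a difference below 0. In none of the 8 lists was a gene called higher. Of 13 tested translation factors 2 were called lower: Gfm1, the elongation factor that moves the ribosome, was 7.96 ± 0.13 in wild-type and 7.57 ± 0.09 in null mice (adjusted p = 0.00238), and Tufm, which delivers aminoacyl-tRNA, was 8.05 ± 0.09 and 7.71 ± 0.15 (adjusted p = 0.00809). Those 2 were 15.4% of that list, and its median was -0.13. Of 20 tested mitochondrial aminoacyl-tRNA synthetases, which charge the tRNAs, 0 were called and the median was -0.09; the smallest p-values were those of Lars2 (-0.21, adjusted p = 0.0627) and Tars2 (-0.20, adjusted p = 0.0708). Of 21 genes of ribosome assembly and rRNA modification 0 were called (median -0.05), with Fastkd2 at -0.31 (adjusted p = 0.0590) and Mrm1 at -0.20 (adjusted p = 0.171).

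Other proteins of the mitochondrial ribosome whose symbols do not match the naming rule gave 5 tested genes, 0 called and a median of -0.13. Among them Chchd1 had -0.13 (adjusted p = 0.205), and Oxa1l, the membrane insertase that binds the ribosome, had 0.10 (adjusted p = 0.289). Of 16 genes of mitochondrial transcription and RNA processing 3 were called lower (18.8%, against 3.56% of all tested genes), and the median was -0.05. They were the exoribonuclease Rexo2 (-0.43, adjusted p = 0.00147), the polynucleotide phosphorylase Pnpt1 (-0.38, adjusted p = 0.0131) and the RNA-binding protein Fastkd1 (-0.33, adjusted p = 0.0315). Of 9 regulators of mitochondrial biogenesis 0 were called and the median was 0.01. Nrf1, the factor of the promoter motif above, had 0.34 (adjusted p = 0.113), and the coactivator Ppargc1a -0.28 (adjusted p = 0.133).

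Respiratory complex subunits of the nuclear genome, the partners of the proteins that mitochondrial ribosomes make, were the list with the lowest median. The median was -0.24 and all 43 differences were below 0, against 46.1% of all tested genes. Of the 43 tested, 17 were called lower (39.5%, against 3.56% of all tested genes). They included Ndufb9 of complex I (-0.43, adjusted p = 0.00339) and Cox5b of cytochrome c oxidase (-0.31, adjusted p = 0.00693). Of 21 import genes 6 were called lower (28.6%, against 3.56% of all tested genes), and the median was -0.15. Among the 6 were the translocase subunit Timm23 (-0.36, adjusted p = 0.00477) and Hspe1, the chaperonin partner of Hspd1 (-0.50, adjusted p = 0.00709). No test compared these lists with the ribosomal proteins. By array, the respiratory subunits stood at -0.36, -0.09, -0.28, -0.21 and -0.23 in null mice, so null array 2 was again the highest of the null arrays, and null array 1 was the lowest.

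**Figure D5:**
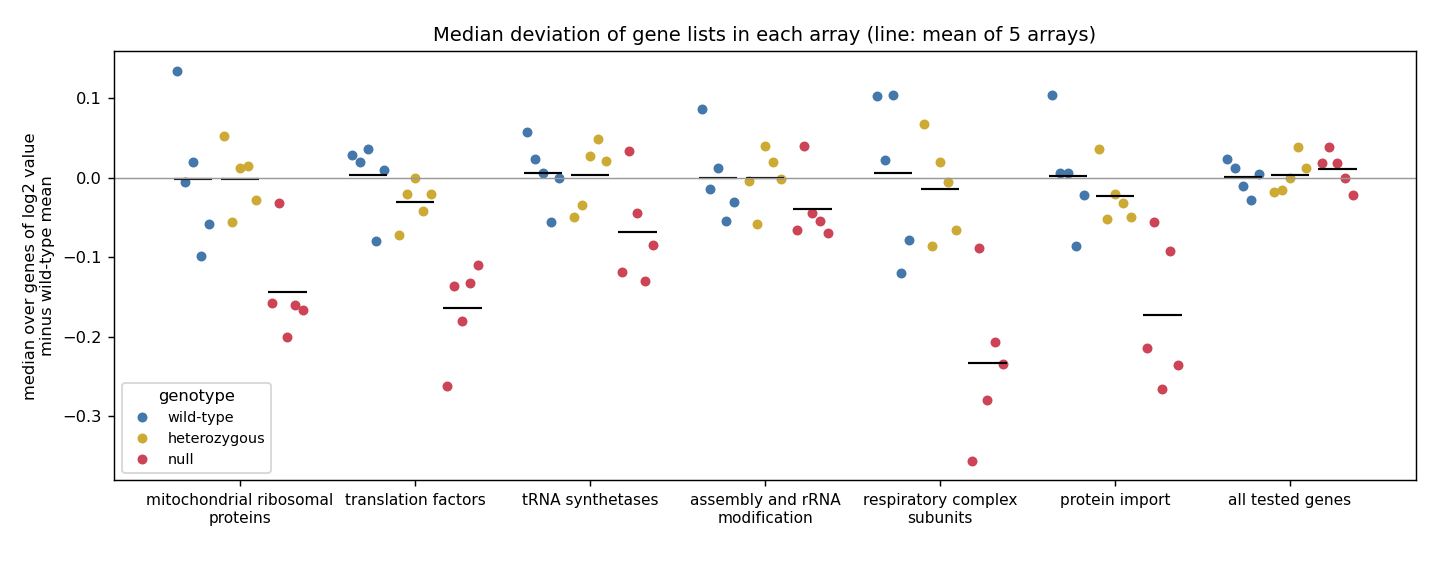
Median over the genes of a list of the log2 value minus the gene's wild-type mean (vertical), 1 point per array, for 6 mitochondrial gene lists and all tested genes (horizontal); colours are genotypes and lines are means of 5 arrays. For the ribosomal proteins 4 null arrays lie between -0.20 and -0.16 and null array 2 at -0.03, while all tested genes stay between -0.028 and 0.038.

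Many genes for mitochondrial proteins share a promoter region with a neighbour on the other strand. A gene on the opposite strand started within 1000 bases upstream of 26 of the 68 members with a promoter entry (38.2%), against 1671 of 8197 tested genes (20.4%). Of the neighbours that are not themselves members 17 were tested. Between null and wild type 2 were called lower (11.8%, against 3.56% of all tested genes) and 0 higher, 11 differences were below 0 (64.7%, against 46.1%), and the median was -0.06. The called neighbours were Ndufb5, a complex I subunit that faces Mrpl47 (-0.28, adjusted p = 0.0347), and Ptcd2, an RNA-processing protein that faces Mrps27 (-0.26, adjusted p = 0.0274). Mrpl46 and Mrps11 face each other, 42 bases apart, with differences of -0.24 and 0.02.

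Markers of cell types differed between null and wild-type arrays in part. A summed level is carried by the most abundant markers of a list, so calls and medians over the list are given beside it. The log2 of the summed level of 13 epithelial markers was 15.10 to 15.20 in wild-type arrays, 15.06 to 15.18 in heterozygous and 15.04 to 15.19 in null arrays. All 13 exceeded the filter value, and between null and wild type 2 were called lower and 1 higher (23.1%, against 7.73% of all tested genes), with a median difference of -0.05. The 8 stromal markers summed to 10.81 to 11.22, 10.87 to 11.24 and 11.26 to 11.56 in the same order of genotypes, with 3 called higher and 1 lower (50%) and a median difference of 0.13. The sums of all null arrays lay above those of the other arrays, but by the median deviation from the wild-type mean the null arrays were at -0.16, 0.37, 0.20, 0.49 and -0.13, and in null arrays 1 and 5 the level of 5 of the 8 markers was below the wild-type mean.

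For endothelium 5 of 8 markers exceeded the filter, the sums were 8.72 to 9.19, 8.75 to 9.01 and 9.0 to 9.42, and 2 of the 5 were called higher (40%; median 0.18). Of the ependymal markers 5 of 6 were above the filter, 1 was called higher and 1 lower, and the sums were 9.82 to 9.95 in wild-type and 9.93 to 10.06 in null arrays. For astrocytes, with 6 of 7 above the filter and 0 called, they were 9.35 to 9.69, 9.27 to 11.13 and 9.42 to 10.48, the 11.13 belonging to heterozygous array 1, and the median difference between null and wild type was 0.52. For macrophages, with 4 of 8 and 0 called, the sums were 8.25 to 8.68, 8.19 to 8.41 and 8.21 to 8.84. Their median difference between null and wild type was 0.10. Cerebellar neuron markers, with 5 of 8 above the filter and 0 called, had a median difference of -0.51 between null and wild type, with 4 of 5 below 0. At an unadjusted p under 0.05 in limma, 0 of the 5 were lower and 1 was higher (0.17). The median deviations of this list were -0.74, -0.06, -0.15, -0.53 and -0.85 in null arrays against -0.07 to 0.062 in wild-type arrays, so null array 2 alone lay in the wild-type range. Between null and wild type the median difference was -0.08 over 4 tested neuronal markers and 0.01 over 7 tested oligodendrocyte markers. In each of these lists 0 were called and 2 differences were below 0. Heterozygous array 1 had the highest sum of neuronal (9.77), cerebellar neuron (10.60) and oligodendrocyte (10.16) markers. The part of these markers in the lower ribosomal protein levels was not tested.

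The sample descriptions hold a number before a dot whose meaning is not given. No such number was shared by a null and a wild-type mouse, so within a number these groups cannot be compared. The numbers also ran mostly higher in null mice than in the other genotypes. A linear covariate for the number therefore overlaps in part with genotype and cannot be told apart from it there. Null and heterozygous mice shared only 460, with 1 array each (null array 2 and heterozygous array 5); there the median difference over the 77 genes was 0, 37 were below 0, and the median over all tested genes was 0.02. Heterozygous and wild-type mice shared 429, with a median of -0.105 (1 array against 2, 62 genes below 0, all genes -0.035), and 432, with 0.05 (2 against 2, 22 genes below 0, all genes 0.04). With the number as a linear covariate the median between null and wild type was -0.08 and 1 member was called, Mrps10, higher (0.48, adjusted p = 0.0239). Mrpl42 then had -0.53 with a wider SE of 0.156 (adjusted p = 0.0808).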

How the data were processed

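The authors' deposited table holds log2 values for 35556 probe sets in 15 arrays; per the submitters' processing notes it was made with Affymetrix Expression Console 1.1 and RMA, which corrects background, equalises array distributions and summarises probes, so shifts common to all genes of an array are removed. The sources used here do not state the log base, genome build or probe annotation of the submitters; base 2 was inferred from the range of values, 1.57 to 13.89. Arrays have no counting depth, and the number of animals limits the precision. Per the labels' protocols, 250 ng of total RNA was biotin labelled for each array.

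Symbols came from GEO's platform annotation, parts of which may be outdated; 21789 probe sets had 1 symbol, 1621 had several and 12146 were not listed, and 1 probe set shared by Mrpl53 and another gene was not used. The probe set with the highest mean was kept per gene (999 genes had more than 1). Groups came from the genotype labels. All 15 arrays entered 1 limma model (lmFit and eBayes, limma 3.58.1, R 4.3.3) with no covariate, p-values were adjusted over 10069 genes, and the procedure was checked on simulated data. No arrays were duplicates (smallest SD between a pair 0.127). Values in every array are given for called members, or for the 6 smallest p-values where fewer than 4 were called. Genes of related lists are named where called, or by the 2 smallest p-values where none was. For respiratory subunits and import genes, values stand beside the list counts only for the 2 called genes with the smallest p-values. Members and lists were chosen with earlier results of these data known. Alternatives covered the filter, probe set choice, normalization, variance model, arrays, blocks and label number. Promoters and gene neighbours came from RefSeq tables of GRCm38.p6.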

Additional observations from a re-analysis of the deposited data

Results flagged for a closer look

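In 6 of 60 groups of 5 arrays examined among the members described array by array, 1 array stood far from the other 4, with a gap to its nearest neighbour above 0.71 of the whole range. Chance gives this in about 1 of 20 groups. Mrps36 read 5.77 in heterozygous array 2, with the next at 5.62. Mrps14 read 7.52 in heterozygous array 1, with the next at 7.28. Mrpl52 read 5.77 in null array 1, with the next at 6.15. Null array 2 accounted for the other 3: Mrps11 read 5.81 there (next 5.56), Mrpl3 read 6.79 (next 6.67), and the median deviation of the 77 genes was -0.032 (next -0.158). Null array 2 is also the null array whose label number is shared with a heterozygous mouse; the part of that number was not tested apart from genotype.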

How the results depend on the processing

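The median of the 77 genes stayed below 0 under every alternative, from -0.173 to -0.081 between null and wild type and from -0.202 to -0.102 between null and heterozygous mice. Counts of called members, 10 and 11 in these comparisons, moved more. They were 6 and 5 without a filter, 6 and 4 with only the genotypes compared, 23 and 20 with array quality weights, 1 and 0 with the label number as a covariate, and 3 and 3 without null arrays 1 and 5. Median centring gave 17 between null and wild type, and no moderated variances gave 7 between null and heterozygous mice. With a replicate block the counts were 6 and 7; of the 5 same-numbered pairs of null and wild-type arrays 0 correlated over 0.1, of null and heterozygous arrays 1, and of heterozygous and wild-type arrays 3, where 4 were the best match of their number, so not every pair deviated together and the numbers were not taken to pair the animals. Leaving out 1 array gave 5 to 26 and 5 to 27, and 0 to 1 for the heterozygous mean against the midpoint (1 without null array 2). Between heterozygous and wild-type mice the count of members was 0 throughout. Calls over all tested genes, 778 and 798 in the main fit of null mice, moved as well. They were 523 and 500 without a filter and 461 and 343 with only the genotypes compared. Array quality weights gave 1320 and 1297, and the label number as a covariate 257 and 195. Without null arrays 1 and 5 they were 396 and 330. Leaving out 1 array gave 390 to 1418 and 356 to 1815. For the single genes called, 432 alternative values kept the call, 175 lost it and 0 reversed; the 174 values of genes never called between heterozygous and wild-type mice kept their direction and stayed uncalled; the causes were not tested. The number of arrays, 5 per genotype, limits what can be called.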
